A study of Mus musculus with 10 samples.

Results

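The genes of the mouse mitochondrial genome were taken as the 37 rows of the deposited table that carry the chromosome name MT, out of 57825 genes in all. By their listed biotype, 13 encode proteins, 2 encode ribosomal RNAs (rRNAs) and 22 encode transfer RNAs (tRNAs). They were compared between 2 groups of 5 RNA sequencing samples of CD8+ T cells from the spleens of female Balb/c mice, 7 to 8 weeks of age according to the methods. In the group CD8+4T1, T cells activated on anti-CD3 for 12 h were co-cultured for 48 h with 4T1, a tumor line derived from a mammary carcinoma of Balb/c mice. In the group CD8+4T1+NaAc the T cells were also given 5 mM sodium acetate (NaAc) for 24 h before the co-culture, and the labels give day 3 for both groups. All samples therefore share activation and tumor cells, and T cells kept without tumor cells were not analysed here. The sources do not say whether the 5 samples of a group came from separate mice, so the p-values measure only the spread between these samples, which may be technical.

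The mitochondrial genome is a small circle of DNA kept in many copies per cell. Both of its strands are transcribed into long precursor RNAs, in which tRNAs lie between most of the other genes, and cutting at the tRNAs frees the individual messenger RNAs and rRNAs. Its proteins are subunits of respiratory chain complexes I, III and IV and of the ATP synthase, complex V. Every other subunit, and all proteins that copy and transcribe mitochondrial DNA and process its RNA, are encoded in the nucleus. Activated CD8+ T cells are known to build up mitochondria, and acetate can enter mitochondrial metabolism after its conversion to acetyl-CoA.

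The deposited unit is FPKM, the fragments of a gene divided by its length and by the total of the sample, so that levels can be compared between genes per length. Undoing this division gave whole numbers, which are the fragments behind each value. Each sample had a total of 16306447 to 18853726 fragments by this measure. The mitochondrial rows held between 233572 and 301931 of them, which is 1.46% to 1.75% (median 1.58%) of the fragments in listed genes in CD8+4T1 and 1.65% to 1.93% (median 1.75%) in CD8+4T1+NaAc. The ranges overlap, and the difference of the means was 0.180 percentage points. Listed genes held 95.5% to 97.9% of all fragments in CD8+4T1 but 89.8% to 92.1% in CD8+4T1+NaAc, and as a share of all fragments the mitochondrial rows differed by 0.0693 percentage points.

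The samples carried T cell markers. Cd8a averaged 78.6 FPKM in CD8+4T1 and 76.5 FPKM in CD8+4T1+NaAc, and Cd8b1 147 and 167 FPKM, both with overlap between the groups. A gene was called where its p from the fit over all genes tested (limma), adjusted by the Benjamini-Hochberg method, was under 0.05, and 17.6% of all genes were called higher in CD8+4T1+NaAc and 19% lower. Of 14 tested markers of 4T1 epithelial tumor cells, 9 were called higher and 0 lower, and the summed level of the 20 listed was 59.0 to 73.7 FPKM in CD8+4T1 and 190.2 to 379.6 FPKM in CD8+4T1+NaAc, with none of them at 0 in every sample. The summed level of the 10 T cell markers was 745.4 to 839.4 FPKM in CD8+4T1 and 634.7 to 758.7 FPKM in CD8+4T1+NaAc, with 1 called higher and 6 lower (3 and 5 with FPKM totals made equal across samples). Cd3d and Cd3e, parts of the T cell receptor complex, were lower in every CD8+4T1+NaAc sample than in any CD8+4T1 sample. The 3 CD4 T cell markers summed to 0.812 to 1.54 FPKM in CD8+4T1 and 1.98 to 2.80 FPKM in CD8+4T1+NaAc. According to the methods, CD8+ T cells were purified before RNA extraction. Mitochondrial RNA from any cell in a sample counts toward the same rows, and in bulk samples fewer cells of a type and less RNA per cell cannot be told apart. The part of these marker differences in the results given here was not tested. Replicate 1 of CD8+4T1+NaAc stood apart, with 20233 genes detected where the other 9 samples had 22291 to 25088, and with 0.471% of its fragments in nuclear rRNA genes against 0.170% to 0.238%. Where this sample weighed most on a result, the value without it is also given.

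Per length, mt-Co1 was the highest of the protein genes. It encodes the catalytic subunit of cytochrome c oxidase, complex IV, and it averaged 3599 FPKM in CD8+4T1 (SD 340, n = 5) and 3965 FPKM in CD8+4T1+NaAc (SD 237, n = 5). Then came mt-Nd1, a complex I subunit, with 2189 FPKM over all samples, and mt-Cytb, the complex III subunit cytochrome b, with 2039 FPKM. Together these 3 genes held 72.6% of the fragments of the mitochondrial protein genes over all samples. The complex I subunits mt-Nd2 (1017 FPKM), mt-Nd5 (832 FPKM), mt-Nd4 (650 FPKM) and mt-Nd6 (628 FPKM) followed. In CD8+4T1 the sample ranges of mt-Nd1 and mt-Cytb overlapped, as did those of mt-Nd5, mt-Nd4 and mt-Nd6. Within every sample, however, mt-Nd5 lay above mt-Nd4 and mt-Nd6. The order of mt-Nd1 and mt-Cytb, and that of mt-Nd4 and mt-Nd6, changed between samples of CD8+4T1.

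The remaining 6 protein genes were listed at much lower values, which are uncertain because the sequence of all but mt-Atp8 also occurs almost whole in nuclear copies. mt-Co2, a complex IV subunit, had 65.2 FPKM over all samples, mt-Co3, another, and mt-Atp6, an ATP synthase subunit, both 26.9 FPKM, and mt-Nd4l 22.4 FPKM. mt-Nd3 and mt-Atp8, a small ATP synthase subunit, had 4.61 and 4.12 FPKM. The 15 rRNA and protein genes are shown by sample in the plot of levels along the genome.

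**Figure D1:**
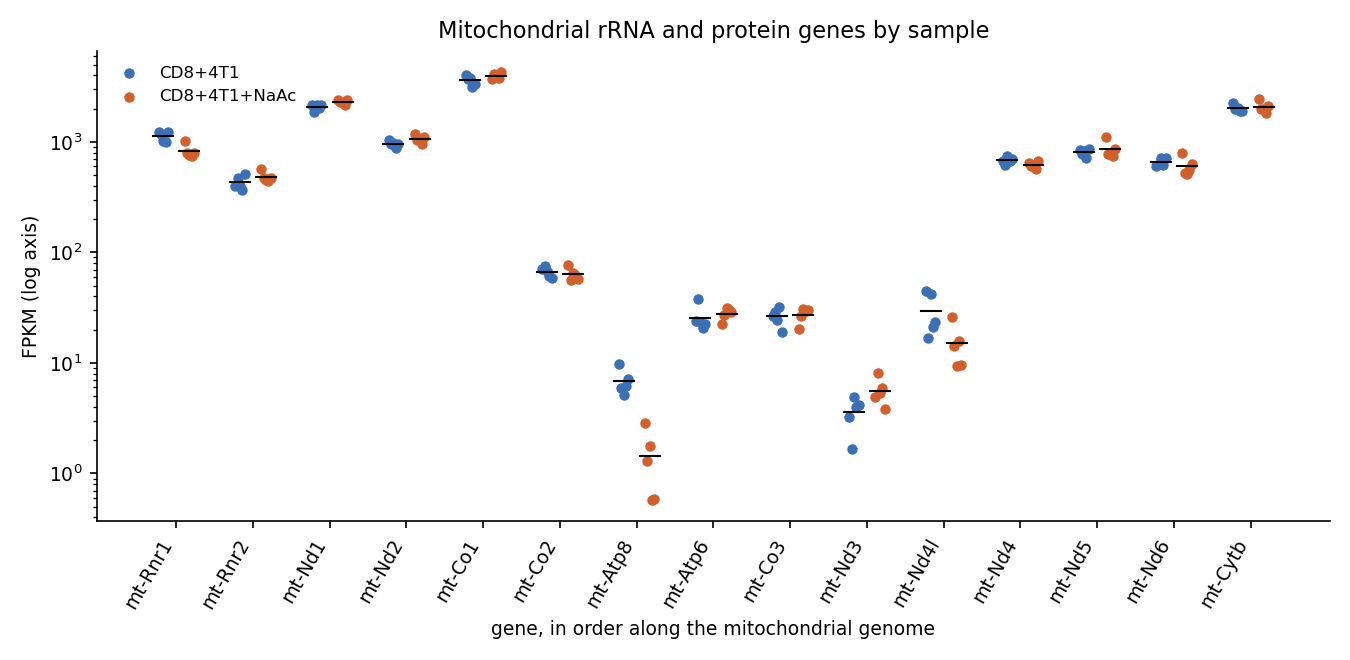
FPKM (log axis) of the 2 rRNA and 13 protein genes in order along the mitochondrial genome, with 1 point per sample, 5 per group, and a line at each group's mean. The genes from mt-Co2 to mt-Nd4l lie between 4.12 and 65.2 FPKM over all samples, and the genes on both sides of them lie between 457 and 3782 FPKM.

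Of the 6 genes from mt-Co2 to mt-Nd4l, all but mt-Atp8 have an annotated near-identical copy in the nuclear genome. A copy of the mitochondrial stretch from mt-Co1 to mt-Nd4 is listed on chromosome 1 as 7 pseudogenes, on the minus strand between 24650616 and 24655278 in the positions of the deposited table. In the GENCODE M21 transcripts (GRCm38), Gm28661 matches the first 681 bases of mt-Co2 with 681 identical, Gm10925 the first 678 of mt-Atp6 with 678, Gm28437 the first 783 of mt-Co3 with 783, Gm10222 the first 294 of mt-Nd4l with 294, and Gm28439 the first 876 of mt-Nd4 with 876. Gm29216 matches the last 492 bases of mt-Co1 with 486 identical, and Gm28438 the first 345 of mt-Nd3 with 344. The only difference of Gm28438 from mt-Nd3 in these bases is T3C, with positions counted from 1 at the first base of mt-Nd3. The first 33 bases of both are printed to show how alike they are, with that base in capitals.
mt-Nd3: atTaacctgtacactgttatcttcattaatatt
Gm28438: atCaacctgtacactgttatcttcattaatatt

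Of all stretches of 50 bases in a protein gene, at least 90% also occur in another annotated gene for mt-Co2 (100%), mt-Co3 (99.9%), mt-Atp6 (99.5%), mt-Nd4l (98.8%) and mt-Nd3 (98.0%). These 5 genes held 0.651% of the fragments of the protein genes. In mt-Nd4 and mt-Co1, where 62.2% and 51.1% of stretches are shared, the levels were 650 and 3782 FPKM. mt-Nd1, mt-Cytb and mt-Nd6 share no such stretch. mt-Atp8 also shares none with an annotated gene, but its own part lies in a stretch of 233 bases between the matched parts of mt-Co2 and mt-Atp6, and 233 bases also lie between their copies Gm28661 and Gm10925. How the authors' counting treated fragments that fit more than 1 place is not given in the sources used here, so the values of these 6 genes, and of their copies, are uncertain.

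**Figure D2:**
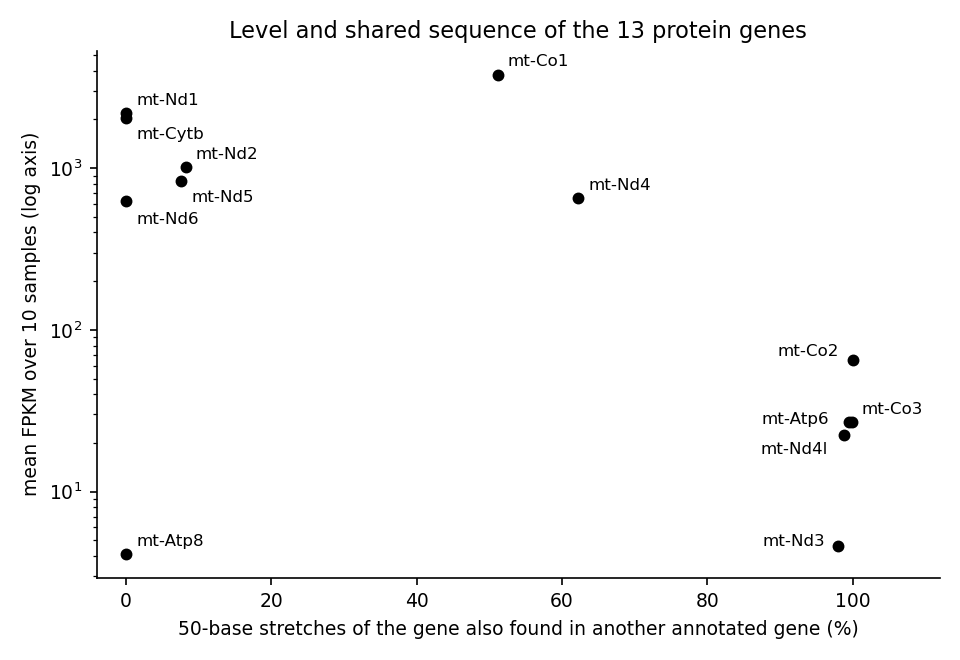
Mean FPKM over all 10 samples (log axis) of each protein gene against the percentage of its 50-base stretches that also occur in another annotated gene, with 1 point per gene, 13 in all. The 5 genes at 98.0% or more lie between 4.61 and 65.2 FPKM, and of the other 8 only mt-Atp8 is as low.

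The levels of the copies lay between 7.90 and 40.6 FPKM in CD8+4T1, some near and some far from those of the genes they match. Gm28661 averaged 40.6 FPKM (SD 4.36, n = 5) against 66.7 FPKM for mt-Co2 (SD 6.44, n = 5), and Gm10925 averaged 32.1 FPKM (SD 12.5) against 25.7 FPKM for mt-Atp6 (SD 7.002). Gm28439 averaged 7.90 FPKM (SD 1.21) and Gm29216 11.1 FPKM (SD 2.27), below the 682 FPKM of mt-Nd4 and the 3599 FPKM of mt-Co1 in the same group.

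Both rRNAs of the mitochondrial ribosome were measured with 9663 to 19713 fragments per sample. mt-Rnr1 (ENSMUSG00000064337, positions 70 to 1024 of MT, plus strand) encodes the 12S rRNA of the small subunit. It had 1223, 1183, 1023, 1006 and 1240 FPKM in CD8+4T1 replicates 1 to 5 and 1029, 788, 756, 749 and 786 FPKM in CD8+4T1+NaAc. Replicates 2 to 5 of CD8+4T1+NaAc lay below every CD8+4T1 sample, and its replicate 1 lay among them. mt-Rnr1 fell by 0.47 on the log2 scale (standard error, SE, 0.10, limma adjusted p = 0.00431; exact permutation test, two-sided, p = 0.0238). Without CD8+4T1+NaAc replicate 1 the log2 fold change was -0.56.

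mt-Rnr2 (ENSMUSG00000064339, positions 1094 to 2675, plus strand), the 16S rRNA of the large subunit, lies next to it with a single tRNA between them. It had 398, 469, 401, 371 and 514 FPKM in CD8+4T1 and 573, 470, 453, 446 and 471 FPKM in CD8+4T1+NaAc, and the groups overlapped. Its log2 fold change was 0.17 (SE 0.10, limma adjusted p = 0.223), or 0.11 without CD8+4T1+NaAc replicate 1 and 0.08 without replicate 1 of both groups. mt-Rnr1 exceeded mt-Rnr2 2.41 to 3.07 times in FPKM in CD8+4T1 and 1.67 to 1.79 times in CD8+4T1+NaAc, with no overlap. This ratio does not depend on how the samples are scaled to each other, and it is given as a description. As a share of all mitochondrial fragments, mt-Rnr1 took 6.12% to 7.64% in CD8+4T1 and 4.42% to 5.66% in CD8+4T1+NaAc, and mt-Rnr2 took 3.78% to 5.24% and 4.39% to 5.22%. With FPKM totals made equal across samples, the log2 fold change of mt-Rnr1 was -0.29 (limma adjusted p = 0.0555, and 0.118 when the samples were scaled to T cell markers) and that of mt-Rnr2 0.35 (limma adjusted p = 0.0219).

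**Figure D3:**
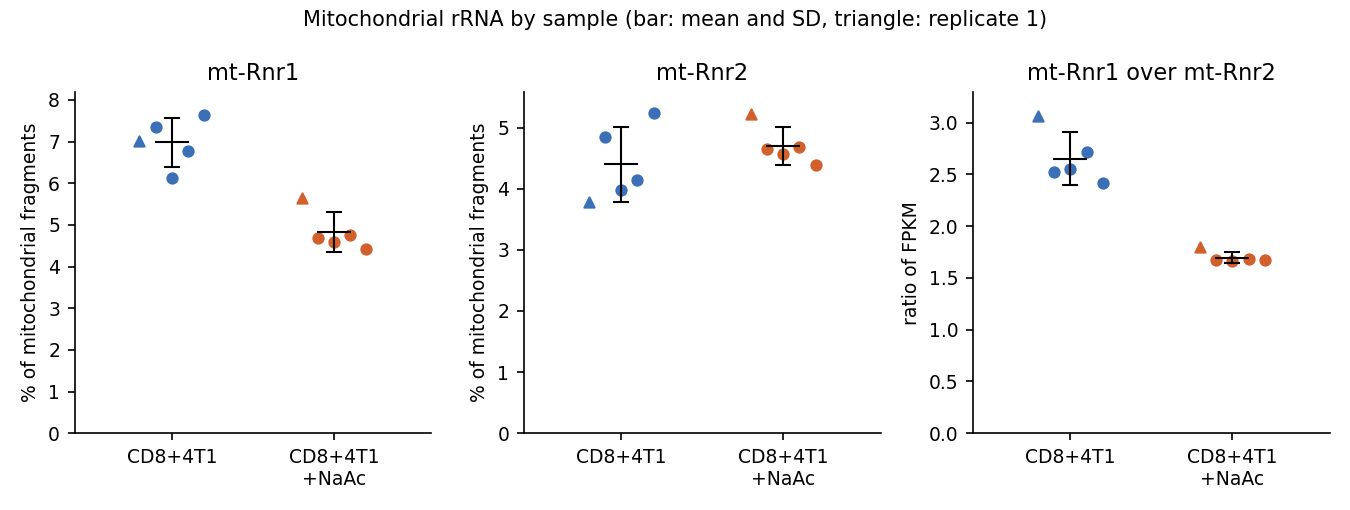
Share of all mitochondrial fragments (%) taken by mt-Rnr1 and by mt-Rnr2, and the ratio of their FPKM, with 1 point per sample, the mean and SD of each group of 5, and replicate 1 as a triangle. The ratio lies between 2.41 and 3.07 in CD8+4T1 and between 1.67 and 1.79 in CD8+4T1+NaAc.

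The fit ran over the 15710 genes whose mean over all samples reached 0.5 FPKM. Of the 37 mitochondrial genes 29 passed this filter: 13 protein genes, 2 rRNAs and 14 tRNAs. Of these 29, 7 were called (24.1%), against 36.5% of all genes tested. Those called were 4 tRNAs, which were higher in CD8+4T1+NaAc (17.6% of all genes were called higher), and mt-Rnr1 and 2 protein genes, which were lower (19% of all genes were called lower). The groups did not overlap in FPKM for 2 of the 29, mt-Atp8 and mt-Th, against 26.4% of all genes tested. The median log2 fold change of the 29 was 0.15 and that of all genes tested -0.02. With FPKM totals made equal across samples, the median of all genes moved to 0.15, all genes called split into 4900 higher and 1387 lower in place of 2764 and 2978, and the mitochondrial genes called split into 9 higher and 1 lower.

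**Figure D4:**
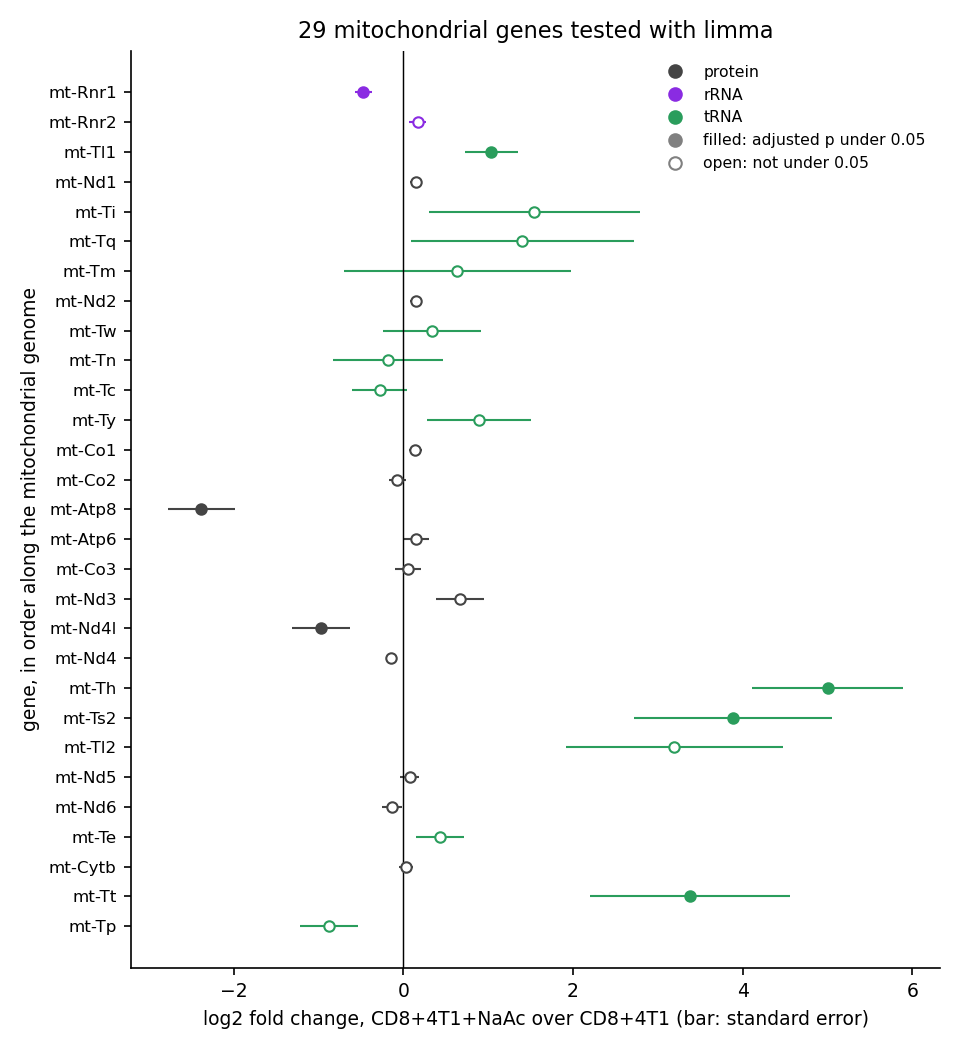
Log2 fold change (CD8+4T1+NaAc over CD8+4T1) of the 29 mitochondrial genes tested, in order along the genome, with its standard error (SE) and with the calls filled. Most protein genes lie close to 0, mt-Atp8 lies at -2.38, and the neighbors mt-Th, mt-Ts2 and mt-Tl2 lie between 3.19 and 5.003.

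Of the 13 protein genes, 0 were called higher and 2 lower, and their median log2 fold change was 0.06. At an unadjusted p under 0.05 there were 4 (30.8%, against 45.9% of all genes tested). Without CD8+4T1+NaAc replicate 1 their median was -0.02, with 3 called lower, mt-Nd6 among them (3557 of all 15710 genes tested were called lower). The 11 protein genes that were not called had log2 fold changes between -0.14 and 0.67. mt-Co1 had 4021, 3677, 3773, 3163 and 3360 FPKM in CD8+4T1 and 3672, 4104, 3944, 3822 and 4281 FPKM in CD8+4T1+NaAc, which overlapped, and a log2 fold change of 0.14 (SE 0.08, limma adjusted p = 0.183). That of mt-Nd1 was 0.15 (SE 0.07, limma adjusted p = 0.09997), that of mt-Nd2 0.15 (SE 0.07) and that of mt-Cytb 0.03 (SE 0.08). mt-Nd4 had a log2 fold change of -0.14 (SE 0.07), mt-Nd5 0.08 (SE 0.11) and mt-Nd6 -0.14 (SE 0.12).

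These small differences turn on how the samples are scaled. With FPKM totals made equal across samples, mt-Nd1, mt-Nd2, mt-Co1 and mt-Nd3 were called higher, with log2 fold changes of 0.33, 0.33, 0.32 and 0.84, and the values of mt-Nd4, mt-Nd6 and mt-Co2 changed sign to 0.04, 0.04 and 0.11. In that scaling 31.2% of all genes tested were called higher. Rescaled to the same nuclear fragments, mt-Nd1, mt-Nd2 and mt-Co1 were called higher, as were 24.3% of all genes tested. Without replicate 1 of both groups mt-Co1 was called higher (0.21) and mt-Nd6 lower (-0.27). mt-Nd6 is the only protein gene listed on the minus strand, and it overlaps mt-Nd5 on the plus strand by 14 bases. The strand setting of the counting is not given in the sources used here, so reads of its messenger RNA and of the opposite strand's precursor cannot be told apart.

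mt-Atp8 (ENSMUSG00000064356, positions 7766 to 7969, plus strand) had the largest fall among the mitochondrial genes tested. It had 9.68, 5.90, 5.11, 6.25 and 7.13 FPKM in CD8+4T1 and 2.87, 1.3, 1.78, 0.580 and 0.590 FPKM in CD8+4T1+NaAc. Every CD8+4T1+NaAc sample lay below every CD8+4T1 sample, but the fragments were few: 33, 21, 17, 21 and 24 in CD8+4T1 and 10, 5, 6, 2 and 2 in CD8+4T1+NaAc. mt-Atp8 fell by 2.38 on the log2 scale (SE 0.39, limma adjusted p = 0.000947; exact permutation test, two-sided, p = 0.00794, the smallest that 5 against 5 samples can give). It is 204 bases long, and its last 43 bases, in capitals, are also the first of mt-Atp6, with which it shares a messenger RNA. It is printed from the GENCODE M21 transcripts (GRCm38) to show this overlap, and the other 161 bases lie outside mt-Atp6.
mt-Atp8: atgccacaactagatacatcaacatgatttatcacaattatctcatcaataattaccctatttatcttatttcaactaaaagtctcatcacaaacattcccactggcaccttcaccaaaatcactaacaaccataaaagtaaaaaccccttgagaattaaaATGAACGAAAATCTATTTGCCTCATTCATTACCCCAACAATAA

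mt-Atp6, on the same messenger RNA, was not called. It had 23.9, 38.1, 23.7, 20.6 and 22.5 FPKM in CD8+4T1 and 22.6, 27.4, 31.2, 29.9 and 28.7 FPKM in CD8+4T1+NaAc, and a log2 fold change of 0.15 (SE 0.15, limma adjusted p = 0.497). Without CD8+4T1 replicate 2, the highest sample, it was 0.30 and mt-Atp6 was called higher (limma adjusted p = 0.0368). The ratio of mt-Atp8 to mt-Atp6 in FPKM was 0.155 to 0.405 in CD8+4T1 and 0.0194 to 0.127 in CD8+4T1+NaAc. Both genes lie in the stretch copied on chromosome 1, and the part of the copies in this difference was not tested. The methods do not say how fragments that reach into both genes were counted, and their part was not tested either.

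mt-Nd4l (ENSMUSG00000065947, positions 9877 to 10173, plus strand), a small complex I subunit, had 45.1, 16.99, 41.9, 21.05 and 23.3 FPKM in CD8+4T1 and 26.2, 14.3, 9.38, 15.9 and 9.53 FPKM in CD8+4T1+NaAc. CD8+4T1 replicates 1 and 3 were the highest, and CD8+4T1+NaAc replicate 1 lay among the CD8+4T1 samples. Its log2 fold change was -0.97 (SE 0.35, limma adjusted p = 0.0493), while the exact two-sided permutation test gave p = 0.0556. In 8 of the 10 fits with a sample left out and 6 of 14 other settings it was not called, down to a log2 fold change of -0.79 without CD8+4T1 replicate 1. Its copy Gm10222 had a log2 fold change of -0.15 (SE 0.26, limma adjusted p = 0.698). Per 1000000 fragments, gene and copy together gave 9.23 to 19.9 in CD8+4T1 and 5.70 to 15.3 in CD8+4T1+NaAc.

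mt-Nd3 had 3.27, 1.65, 4.93, 4.01 and 4.18 FPKM in CD8+4T1 and 4.87, 8.08, 5.398, 5.95 and 3.81 FPKM in CD8+4T1+NaAc, and its log2 fold change was 0.67 (SE 0.28, limma adjusted p = 0.0891). Without CD8+4T1 replicate 2, the lowest sample, mt-Nd3 had a log2 fold change of 0.42. Its copy Gm28438 had 5.72, 8.81, 11.0, 10.6 and 9.31 FPKM in CD8+4T1 and 13.2, 22.4, 25.6, 23.99 and 18.2 FPKM in CD8+4T1+NaAc, with no overlap. Gm28438 rose by a log2 fold change of 1.18 (SE 0.21, limma adjusted p = 0.00162). Per 1000000 fragments, mt-Nd3 and Gm28438 together gave 3.11 to 5.52 in CD8+4T1 and 6.26 to 10.7 in CD8+4T1+NaAc, with no overlap. The copy of mt-Co3, Gm28437, rose by 0.30 (SE 0.09, limma adjusted p = 0.0202), while mt-Co3 itself had a log2 fold change of 0.06 (SE 0.15). mt-Co2 had a log2 fold change of -0.07 (SE 0.10) and its copy Gm28661 one of 0.11 (SE 0.08), neither called. Of the 7 copies, Gm28438 and Gm28437 were the ones called. Of all genes tested, 36.5% were called, and for 26.4% the groups did not overlap in FPKM. Gm29216 was called in addition in 5 of 14 other settings and in 2 of the 10 fits with a sample left out. The fit without CD8+4T1+NaAc replicate 1 was among them (0.60, limma adjusted p = 0.0138). Gm28661 was called in 2 of 14 other settings.

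The 22 tRNA rows held 0.303% to 0.519% of the mitochondrial fragments in CD8+4T1 and 0.236% to 0.546% in CD8+4T1+NaAc, or 0.236% to 0.322% without its replicate 1. Mature tRNAs are short and folded, and their fragments cannot be told apart from those of precursors. The methods do not say how fragments that reach from a tRNA into a neighboring gene were counted, and their part was not tested. The tRNAs of valine, phenylalanine, aspartate and glycine (mt-Tv, mt-Tf, mt-Td and mt-Tg) were listed at 0 in all samples. The 8 tRNAs under the filter had at most 3 fragments in any sample, and 7 of the 14 tested had a mean under 10 fragments, so their fold changes rest on very few molecules. None of the tRNAs shares a stretch of 50 bases with another annotated gene. However, mt-Ts1, mt-Td, mt-Tk, mt-Tg and mt-Tr, all under the filter, lie between genes that are copied on chromosome 1. The copies keep the spacing there, with 140 bases between those of mt-Co1 and mt-Co2 and 69 between those of mt-Co3 and mt-Nd3. These unannotated stretches were not searched.

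A run of 3 tRNAs with log2 fold changes of 3.19 to 5.003, values that depend on the pseudocount because many samples were at or near 0, lies between mt-Nd4 and mt-Nd5, both complex I genes that were not called. They are mt-Th (histidine, positions 11546 to 11612), mt-Ts2 (serine, 11613 to 11671) and mt-Tl2 (leucine, 11671 to 11741). They are printed 5′ to 3′ from the GENCODE M21 transcripts (GRCm38), with the anticodon in capitals, because the run of these tRNAs has no gap between them.
mt-Th: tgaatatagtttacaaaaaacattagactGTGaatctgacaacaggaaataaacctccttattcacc
mt-Ts2: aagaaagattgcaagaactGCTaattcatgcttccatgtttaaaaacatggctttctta
mt-Tl2: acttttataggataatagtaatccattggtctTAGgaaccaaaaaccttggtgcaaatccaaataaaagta

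mt-Th had 0, 0, 2, 0 and 1 fragments in CD8+4T1 and 7, 14, 15, 17 and 5 in CD8+4T1+NaAc, with no overlap. Over each group that is 3 and 58 fragments, a ratio of 18.8 after scaling to the fragments of each group (95% exact interval 6.11 to 93.6, for counting error only). In FPKM it had 0 to 1.83 in CD8+4T1 and 4.49 to 15 in CD8+4T1+NaAc, and it rose (limma adjusted p = 0.00152; exact permutation test, two-sided, p = 0.00794). Each of the 10 fits with a sample left out called it.

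mt-Ts2 had 0, 7, 0, 1 and 3 fragments in CD8+4T1 and 16, 27, 9, 9 and 5 in CD8+4T1+NaAc, a pooled ratio of 5.82 (95% exact interval 3.05 to 12.2). It was called higher (limma adjusted p = 0.0244), and the call was lost without replicate 1 of both groups (limma adjusted p = 0.0773), with a pseudocount of 0.01 (0.0514) and without CD8+4T1 replicate 3 or CD8+4T1+NaAc replicate 2. mt-Tl2 had 0, 6, 10, 11 and 27 fragments in CD8+4T1 and 116, 37, 65, 20 and 29 in CD8+4T1+NaAc, a pooled ratio of 4.80 (95% exact interval 3.57 to 6.55). It was not called (limma adjusted p = 0.0745), but limma's voom on the recovered fragments called it (adjusted p = 0.0179). Its log2 fold change of 3.19 was 1.87 with a call without CD8+4T1 replicate 1 (limma adjusted p = 0.0293), 2.84 with no call without CD8+4T1+NaAc replicate 1 (limma adjusted p = 0.130), and 1.52 with a call without both (limma adjusted p = 0.0405). CD8+4T1 replicate 5 overlapped CD8+4T1+NaAc for mt-Tl2, as replicate 2 did for mt-Ts2.

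mt-Tl1, the other leucine tRNA, follows mt-Rnr2 directly at positions 2676 to 2750. Its sequence is shown beside that of mt-Tl2 because both carry leucine with different anticodons.
mt-Tl1: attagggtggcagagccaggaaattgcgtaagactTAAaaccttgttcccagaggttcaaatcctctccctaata

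mt-Tl1 had 7.98, 11.5, 13.9, 8.09 and 8.89 FPKM in CD8+4T1 and 44.4, 15.6, 23.4, 12.6 and 16.9 FPKM in CD8+4T1+NaAc, where replicate 1 was the highest and only replicate 4 lay within the range of CD8+4T1. It rose by a log2 fold change of 1.04 (SE 0.31, limma adjusted p = 0.0245), or 0.76 without CD8+4T1+NaAc replicate 1 (limma adjusted p = 0.0169), and 4 of the 10 fits with a sample left out did not call it, nor did limma's voom on the recovered fragments (adjusted p = 0.0514). mt-Tt, the threonine tRNA after mt-Cytb, had 0, 0, 1, 0 and 4 fragments in CD8+4T1 and 25, 2, 1, 5 and 3 in CD8+4T1+NaAc. It was called higher (limma adjusted p = 0.0456), while the exact two-sided permutation test gave p = 0.0556. Of the 36 fragments in CD8+4T1+NaAc, 25 came from replicate 1, without which the limma adjusted p was 0.0861, and 7 of 12 other settings did not call it.

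mt-Tp, the proline tRNA at positions 15356 to 15422 on the minus strand, held most of the tRNA fragments, with a mean of 680 per sample. No annotated gene follows it before the end of the listed genome, where the control region lies. Its sequence is printed as the most abundant tRNA row, with the anticodon in capitals.
mt-Tp: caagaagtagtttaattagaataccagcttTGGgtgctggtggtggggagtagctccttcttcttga

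mt-Tp had 620, 883, 849, 662 and 679 FPKM in CD8+4T1 and 1038, 238, 402, 373 and 273 FPKM in CD8+4T1+NaAc. Replicate 1 of CD8+4T1+NaAc was the highest of all 10 samples, and the other 4 of its group lay below every CD8+4T1 sample. The log2 fold change was -0.87 (SE 0.34, limma adjusted p = 0.0703), and mt-Tp was called lower by limma's voom on the recovered fragments (adjusted p = 0.0181) and with sample weights (-1.11, limma adjusted p = 0.0011). Without CD8+4T1+NaAc replicate 1 it was -1.22 (limma adjusted p = 0.00042).

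**Figure D5:**
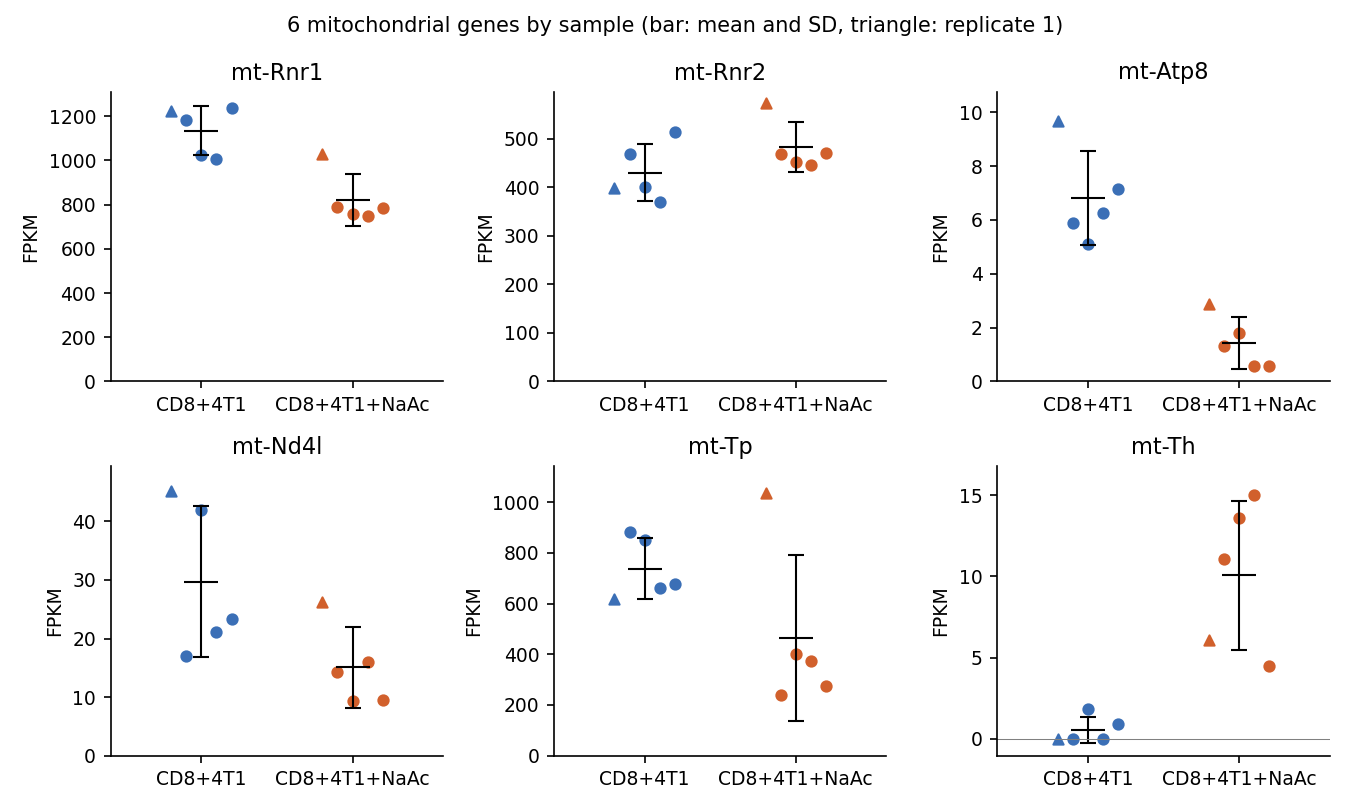
FPKM of mt-Rnr1, mt-Rnr2, mt-Atp8, mt-Nd4l, mt-Tp and mt-Th, with 1 point per sample, the mean and SD of each group of 5, and replicate 1 as a triangle. The groups do not overlap for mt-Atp8 and mt-Th, and replicate 1 of CD8+4T1+NaAc lies among or above the CD8+4T1 samples for mt-Rnr1, mt-Rnr2, mt-Nd4l and mt-Tp.

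The tRNAs of cysteine and asparagine, mt-Tc and mt-Tn, lie on the minus strand on both sides of a gap of 32 bases. mt-Tc had 74.4, 72.1, 181, 223 and 184 FPKM in CD8+4T1 and 104, 140, 100.1, 102 and 102 FPKM in CD8+4T1+NaAc, and its log2 fold change was -0.28 (SE 0.32). With samples left out, it ranged from -0.50 without CD8+4T1 replicate 2 to -0.089 without CD8+4T1 replicate 4. mt-Tn had 21.9, 61.4, 134, 94.0 and 109 FPKM in CD8+4T1 and 13.2, 113, 81.9, 80.8 and 100.9 FPKM in CD8+4T1+NaAc, with the lowest value of each group in replicate 1, and its log2 fold change was -0.18 (SE 0.65). Without CD8+4T1+NaAc replicate 1 it changed sign to 0.38. mt-Te, the glutamate tRNA, had a log2 fold change of 0.43 (SE 0.28). None of these 3 was called, but mt-Te was without CD8+4T1 replicate 5 (0.67, limma adjusted p = 0.0377). The other 5 tRNAs tested had means of 0.768 to 9.21 FPKM, log2 fold changes between 0.34 and 1.55 and limma adjusted p between 0.288 and 0.741. Among them, mt-Tq was called higher without replicate 1 of both groups (3.03, limma adjusted p = 0.0327). Its rows held 4 fragments over CD8+4T1 and 6 over CD8+4T1+NaAc.

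The nuclear genes that maintain and transcribe mitochondrial DNA, or process, stabilize, degrade and translate its RNA, were described from a list of 60, all of which were tested. Of these 21 were called (35%, against 36.5% of all genes tested), 6 higher and 15 lower, with a median log2 fold change of -0.12. This median changed sign to 0.06 with FPKM totals made equal across samples, when 14 were called higher and 4 lower. In that scaling the median of all 15710 genes tested was 0.15, with 4900 called higher and 1387 lower. Among 9 transcription genes, Polrmt, the mitochondrial RNA polymerase, averaged 7.47 FPKM in CD8+4T1 (SD 0.445, n = 5) and 8.85 FPKM in CD8+4T1+NaAc (SD 0.878, n = 5) and rose by 0.24 (SE 0.07, limma adjusted p = 0.0285), though 4 of the 10 fits with a sample left out did not call it. Tefm, its elongation factor, fell by 0.52 on the log2 scale (SE 0.10). Tfb2m, which melts the promoter with the polymerase, had a log2 fold change of -0.13 (SE 0.07) and was not called. Tfam, which packs the DNA and starts transcription, fell by 0.27 (SE 0.06, limma adjusted p = 0.00494), but had -0.10 and lost the call with FPKM totals made equal across samples.

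Among 16 RNA processing genes 2 were called higher and 4 lower (37.5% called, against 36.5% of all genes tested). Elac2, which cuts precursors at the 3′ ends of tRNAs, had 17.5 to 21.3 FPKM in CD8+4T1 and 22.2 to 26.1 FPKM in CD8+4T1+NaAc and rose by 0.31 (SE 0.07, limma adjusted p = 0.00373). Gtpbp3, which modifies tRNAs, rose by 0.50 (SE 0.10), and Pus1, which makes pseudouridine in tRNAs, fell by 0.62 (SE 0.10). Among 14 stability and decay genes 2 were called higher and 2 lower (28.6% called, against 36.5% of all genes tested). Slirp, which binds mitochondrial messenger RNA together with Lrpprc, had 1.87 to 3.01 FPKM in CD8+4T1 and 0.396 to 1.06 FPKM in CD8+4T1+NaAc and fell by 1.40 on the log2 scale (SE 0.25, limma adjusted p = 0.00128). Lrpprc itself had a log2 fold change of 0.25 (SE 0.11, limma adjusted p = 0.0959), and 0.34 with a call without CD8+4T1+NaAc replicate 1. It was also called higher in 5 of 14 other settings, among them FPKM totals made equal across samples (0.43, limma adjusted p = 0.0122). Rexo2, which degrades short RNAs, fell by 0.79 (SE 0.08), Mtpap, the mitochondrial poly(A) polymerase, rose by 0.57 (SE 0.13), and Fastkd1, a mitochondrial RNA-binding protein, rose by 0.40 (SE 0.12), which 5 of the 10 fits with a sample left out did not call. Pnpt1, an exonuclease of the degradation complex, had a log2 fold change of 0.02 (SE 0.09).

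The nuclear-encoded subunits of the complexes that also hold mitochondrial subunits were mostly lower in CD8+4T1+NaAc. Of 74 tested, 0 were called higher and 48 lower (64.9%, where 19% of all genes tested were called lower), with a median log2 fold change of -0.43 against 0.06 (-0.02 without CD8+4T1+NaAc replicate 1) for the 13 mitochondrial protein genes and -0.02 for all genes tested. By complex, 21 of 36 were called lower in complex I, 6 of 9 in complex III, 9 of 11 in complex IV and 12 of 18 in complex V. Among all genes, the split depends on level: with the filter at a mean of at least 5 FPKM, 1257 of 7800 were called higher and 2476 lower. With FPKM totals made equal across samples the list had 5 higher, 34 lower and a median of -0.25, when the median of the mitochondrial protein genes was 0.23. Of all 15710 genes tested, 4900 were then called higher and 1387 lower, with a median of 0.15. The difference between the lists was not tested.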

How the data were processed

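Sequencing data of 10 samples in 2 groups of 5 were used, grouped by their labels. The authors deposited FPKM, 1 column per sample, and gene lengths, an other column that was used as listed. Per the submitters' processing notes, reads were handled with fastp, HISAT2 2.0.5, StringTie 1.3.3b and featureCounts 1.5.0-p3. The libraries were made with a NEBNext Ultra kit. The genome build, the annotation, the strand setting and the treatment of reads with several matches are not given in the sources used here. All 37 mitochondrial rows have the same position and strand as in GENCODE M21 (GRCm38), while 1467 of 52073 shared genes of the whole table do, so nuclear positions are those of the deposited table. Sequences came from the GENCODE M21 transcripts, which are of another strain than Balb/c.

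FPKM times length gave whole fragments for 100% of values (within 0.1 of a whole number). Precision follows from these fragments, and intervals cover counting error only. All genes whose mean reached 0.5 FPKM were fitted on log2(FPKM + 0.1), so that fold changes of low genes depend on the pseudocount, with limma 3.58.1 (R 4.3.3, variance trend and robust moderation), two-sided, without a block, and adjusted by Benjamini-Hochberg over 15710 genes. Single genes were also compared by an exact permutation test of 5 against 5 samples. Sums and shares over the members were described without a test. The fit was also tested on simulated data, the outcome of which is not given here. Figures were drawn with matplotlib 3.10.9.

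The members and gene lists were chosen with earlier results of these data known. All rRNA and protein genes were named, with the tRNAs that had a mean of at least 20 fragments or were called. Of the nuclear list, up to 4 called genes per direction with the largest fold change and at least 1 FPKM and 8 set genes were named. Where a symbol is listed more than once, the row with the highest mean was used. Alternatives were other pseudocounts (1 and 0.01), filters (none, 5 FPKM and 10 fragments), scalings, moderation, sample weights, voom, a replicate block, thresholds and samples left out.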

Additional observations from a re-analysis of the deposited data

Results flagged for a closer look

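In 58 groups of 5 values, formed by the named genes and the shares of the mitochondrial genome, 10 had a sample set apart from the others by a gap of more than 0.71 of the group's range, where chance gives about 2.9. Replicate 1 of CD8+4T1+NaAc was that sample in 6 of them. It was the highest of its group for mt-Rnr1 (gap of 0.841 of the range), for mt-Rnr2 (0.783), for the ratio of mt-Rnr1 to mt-Rnr2 (0.901) and for the share of tRNA in mitochondrial fragments (0.722), and the lowest for mt-Tn (0.844) and for the share of protein genes (0.71). Replicate 1 of CD8+4T1 was the lowest of its group for mt-Tl2 (0.717) and for the tRNA share (0.783). Replicate 2 of CD8+4T1+NaAc was the highest for mt-Tc (0.894), and replicate 2 of CD8+4T1 the highest for mt-Atp6 (0.757), as it also was for Gm10925, the copy of mt-Atp6, with 53.2 FPKM. Many of the 58 groups of values depend on each other, such as mt-Rnr1, mt-Rnr2 and their ratio, or the protein, rRNA and tRNA shares. The counts of samples set apart are therefore not counts of separate deviations.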

How the results depend on the processing

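mt-Atp8 and mt-Th kept their direction and their call in every setting in which they were tested, with log2 fold changes of -2.68 to -1.75 and of 2.86 to 7.02. The number of mitochondrial genes called was 7 of 29, and 4 of 22 with a mean of at least 10 fragments. Of the 29 it was 3 at an adjusted p under 0.01, and 5 with an absolute log2 fold change over 1 (4 higher and 1 lower). With each sample left out it was 4 to 8, lowest without CD8+4T1 replicate 4 or without CD8+4T1+NaAc replicate 2. Without replicate 1 of both groups it was 10, when 6981 of all genes tested were called. Over all genes the 5742 called became 5892 with a mean of at least 10 fragments and 3733 with a mean of at least 5 FPKM. They became 3702 at an adjusted p under 0.01 and 1016 with an absolute log2 fold change over 1 (4947 to 6965 with a sample left out). The difference in the mitochondrial share moved from 0.180 to 0.0693 percentage points when all fragments were the denominator, which follows from the smaller share of listed genes in CD8+4T1+NaAc.

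Values that changed sign were all uncalled, and the cause was not tested. Rescaled to T cell markers, they were mt-Co2 (0.11), mt-Nd4 (0.035), mt-Nd6 (0.040), Tfb2m (0.040) and Gm10222 (0.028). Rescaled to the same total FPKM, they were mt-Co2 (0.11), mt-Nd4 (0.036), mt-Nd6 (0.041), Tfb2m (0.042) and Gm10222 (0.029), and rescaled to nuclear fragments mt-Co2 (0.024). With sample weights mt-Nd4 (-0.18) and mt-Nd6 (-0.28) were called lower, mt-Nd5 was -0.020 and mt-Cytb -0.012, and without replicate 1 of both groups mt-Nd5 was -0.0019 and mt-Tw -0.0035. With each sample left out, the ranges that crossed 0 were mt-Tm (-0.31 to 1.13), mt-Tw (-0.054 to 0.79), mt-Tn (-0.60 to 0.38), mt-Co3 (-0.055 to 0.16), mt-Nd5 (-0.021 to 0.12), mt-Cytb (-0.027 to 0.077), Pnpt1 (-0.012 to 0.088), Gm10925 (-0.014 to 0.30), Gm10222 (-0.35 to 0.017) and Gm28439 (-0.13 to 0.22).

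Whether the replicate numbers pair the samples was not settled. The deviations of same-numbered samples correlated at -0.03 to 0.07 across genes, and 4 of 10 samples correlated best with their own number. A correlation over all genes cannot exclude pairing for single genes. With the number as a replicate block, the SE went from 0.65 to 0.24 for mt-Tn, but from 0.34 to 0.35 for mt-Tp. With the number as a replicate block 5399 genes and 7 mitochondrial genes were called, with mt-Nd2 (0.15, limma adjusted p = 0.0395) in place of mt-Tt. Depth limits mt-Atp8, mt-Nd3 and most tRNAs, which rest on few fragments, but less so mt-Tp, mt-Tc and mt-Tn, with means of 679.8, 142.8 and 97.4 fragments per sample.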
